A study of Mus musculus with 10 samples.

Results

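Krt7, Krt8, Krt18 and Krt19, the keratins of simple and glandular epithelium, were followed across 5 cell populations of the mouse paw pad. The members were the probe sets annotated to exactly 1 of these symbols, and they made up 4 of the 12393 genes that the array measured with a single symbol. All 4 genes passed the filter on low signal and entered the tests, which covered 9320 genes. The populations were sorted by flow cytometry from the paw pads of CD1 mice, all female and wild-type: sweat gland myoepithelial cells, sweat gland luminal cells, sweat duct basal cells, sweat duct suprabasal cells and palmoplantar epidermis. Each population had 2 arrays called biological replicates, 10 in all, and no group carried an engineered allele or a treatment. The labels give neither the age of the mice, nor the antibodies of the sort, nor how many animals went into a sample, so p-values measure the spread between these samples. The series was built to identify stem cell populations of the glands and ducts, and the keratins address which of its compartments carry a simple epithelial cytoskeleton.

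Keratins are intermediate filament proteins that assemble as obligate pairs of a type II and a type I chain. Krt8 and Krt7 are type II, Krt18 and Krt19 are type I, and Krt8 with Krt18 is the founding pair of simple epithelia such as liver, gut and gland lumen. Stratified epithelia build their filaments from other pairs, Krt5 with Krt14 in the basal layer and Krt1 with Krt10 above it. In the sweat gland the secretory coil holds luminal cells that make the sweat and an outer layer of contractile myoepithelial cells, and the duct has a basal layer below a suprabasal layer facing the lumen.

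In the mouse genome (build GRCm38.p6, RefSeq) Krt7 lies at chr15:101412403-101427806, Krt8 at chr15:101996711-102004342, Krt18 at chr15:102028216-102032026 and Krt19 at chr11:100140810-100145926. Krt8 and Krt18 are next to each other on opposite strands, 23873 bases apart, so that the partner chains of the founding pair share a locus. Their promoters are shown because both genes were high and low in nearly the same populations, and the promoter of Krt7 because that gene followed another pattern. Each window holds 250 bases before and 50 after the annotated start, on the strand of the gene. It spans chr15:101412153-101412452 (plus strand) for Krt7, chr15:102004293-102004592 (minus strand) for Krt8 and chr15:102027966-102028265 (plus strand) for Krt18. Capitals mark matches on either strand. The motifs searched were the TATA box core (TATAA) and the GC box, in the form GGGCGG. The AP-1 site was searched as TGANTCA, the core hexamer of nuclear receptor elements as AGGTCA, and the CCAAT box by its name. A match to AGGTCA is a single hexamer and not a full receptor element.
Krt7: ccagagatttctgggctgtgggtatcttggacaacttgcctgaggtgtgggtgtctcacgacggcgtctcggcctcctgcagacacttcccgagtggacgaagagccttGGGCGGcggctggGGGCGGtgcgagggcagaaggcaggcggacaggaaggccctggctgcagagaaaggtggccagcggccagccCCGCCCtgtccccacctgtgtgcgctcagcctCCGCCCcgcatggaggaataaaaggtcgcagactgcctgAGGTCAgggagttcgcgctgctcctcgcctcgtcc
Krt8: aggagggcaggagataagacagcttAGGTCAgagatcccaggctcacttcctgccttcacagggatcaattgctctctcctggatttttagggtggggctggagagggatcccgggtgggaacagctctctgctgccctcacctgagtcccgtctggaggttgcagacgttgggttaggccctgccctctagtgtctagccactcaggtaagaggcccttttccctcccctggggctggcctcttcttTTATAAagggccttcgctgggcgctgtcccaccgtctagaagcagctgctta
Krt18: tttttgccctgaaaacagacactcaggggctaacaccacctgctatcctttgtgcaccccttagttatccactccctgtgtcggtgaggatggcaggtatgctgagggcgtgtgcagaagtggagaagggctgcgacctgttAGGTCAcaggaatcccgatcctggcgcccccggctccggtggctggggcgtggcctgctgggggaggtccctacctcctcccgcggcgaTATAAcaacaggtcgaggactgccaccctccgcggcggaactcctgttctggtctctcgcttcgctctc
The Krt7 window held 4 GGGCGG matches and no TATAA, and the Krt8 and Krt18 windows each held TATAA and no GGGCGG. Near matches were not counted, and a link between these motifs and the levels was not tested. In Krt18 the TATAA match began 19 bases before the annotated start, and in Krt8 overlapping matches of both strands spanned the annotated start itself. AGGTCA was present in all 3 windows, at 225 bases before the start in Krt8, at 108 bases before it in Krt18 and 15 bases after it in Krt7. Among 32851 mouse promoters of the same length, 24.9% held the TATA core, 35.7% the GC box, 16.3% the AGGTCA hexamer, 7.81% the AP-1 site and 37.4% the CCAAT box. The last of these and the AP-1 site did not occur in the 3 windows. The RefSeq table used here gave no window for Krt19.

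Values are MAS5 signals on a linear scale, scaled so that the trimmed mean of every array was 500, and no detection calls were used here. The median signal over all probe sets ranged from 65.7 to 120.1 over the 10 arrays. The myoepithelial arrays carried the markers of their label. All 8 myoepithelial genes (Acta2, Myh11 and others) exceeded their luminal level in myoepithelial cells by the test described below, as 16.5% of all genes did. The summed signal of the 8 was 137893.5 and 203006.5 on the myoepithelial arrays against at most 3773.1 on any other. The duct suprabasal arrays did not stand apart from the luminal arrays in the same way. Of 11 secretory luminal genes, the channel gene Best2 included, 0 passed limma's test between these populations, where 4.95% of all genes were higher and 10.2% lower in luminal cells. Of the 11, 3 had an unadjusted p under 0.05. The median signal of the 11 on duct suprabasal arrays 1 and 2 was 74.4% and 47.7% of the luminal mean. Single genes lay on both sides of that mean, from 35.4% to 251% on array 1 and from 8.68% to 148% on array 2. Best2 was above it on both arrays (247% and 148%), and Foxi1 below it on both (36.4% and 8.68%). With sorted bulk cells, fewer cells of a type and less RNA per cell cannot be told apart. Probe sets of different genes differ in brightness for reasons of sequence, so levels below are compared between populations within a gene only.

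Krt8, the type II chain of the founding pair, was brightest in luminal cells and close to the bottom of the array in epidermis. Its signal was 15462.7 and 19734.3 in luminal cells, 10825.1 and 4438.1 in duct suprabasal cells, 7192 and 6301.9 in myoepithelial cells, 1835.5 and 905.3 in duct basal cells, and 17.8 and 3.5 in epidermis. No pair of populations overlapped except duct suprabasal and myoepithelial, where the suprabasal arrays lay on both sides of the myoepithelial ones. As mean ± SD (n = 2) the signal was 17599 ± 3021 in luminal, 7632 ± 4516 in duct suprabasal, 6747 ± 629 in myoepithelial and 1370 ± 658 in duct basal cells. In the order of levels, the fall from duct basal cells to epidermis and that from myoepithelial to duct basal cells passed the test. With the brightest probe set, the steps from luminal to duct suprabasal and on to myoepithelial cells did not. Krt8 was read by 3 probe sets, of which the brightest gave the values above. The other 2 (suffix _x_at, whose probes can also match other transcripts) put the populations in the same high and low places, with 10690.8 to 14312.9 in luminal cells and 2.5 to 7.3 in epidermis.

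Krt18, the type I partner of Krt8, shared the top and the bottom of this order. It reached 15131.8 and 17022.5 in luminal cells, 9821.2 and 4750.9 in duct suprabasal cells, 2194.9 and 1026.6 in duct basal cells, and 18.3 and 14.9 in epidermis. On the myoepithelial arrays it was 3744.3 and 444.1, so that array 1 lay above both duct basal arrays and array 2 below both. The mean ± SD in myoepithelial cells was 2094 ± 2334 (n = 2), against 16077 ± 1337 in luminal cells.

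Krt19, a type I keratin that lacks most of the tail domain of other keratins, was the steadiest of the 4 in luminal cells, at 12979.5 and 13119 (13049 ± 98.6, n = 2). It gave 5979.8 and 1904.8 in duct suprabasal cells, 995.1 and 964 in duct basal cells, and 4.1 and 14.1 in epidermis. The myoepithelial arrays again lay on both sides of the duct basal ones, at 2426.5 and 255.2. By the mean of log2 values the order for Krt18 and for Krt19 was luminal, duct suprabasal, duct basal, myoepithelial, epidermis, and of its steps only that down to epidermis passed the test. By mean signal the myoepithelial level lay above the duct basal one, at 2094 against 1611 for Krt18 and 1341 against 979.5 for Krt19, so the order of these neighbours depends on the scale.

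Krt7, a type II keratin of ducts and glandular lining, followed a different order. It was 1088.5 and 517.6 in duct suprabasal cells, 449.6 and 683.6 in luminal cells, 359.9 and 427.8 in epidermis, 95.5 and 265.5 in duct basal cells, and 179.8 and 82.4 in myoepithelial cells. Duct suprabasal and luminal arrays overlapped, epidermis lay just below both, and the outer layers of gland and duct overlapped at the bottom. No step between neighbours in this order passed the test, although the ends did. Krt7 was the member whose signal in epidermis was well inside the range of the array, above 73.9% and 76.8% of the probe sets on the 2 epidermal arrays, whereas Krt8 was above 29.6% and 10.8%, Krt18 above 30.1% and 24.9%, and Krt19 above 13.6% and 24.3%.

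**Figure D1:**
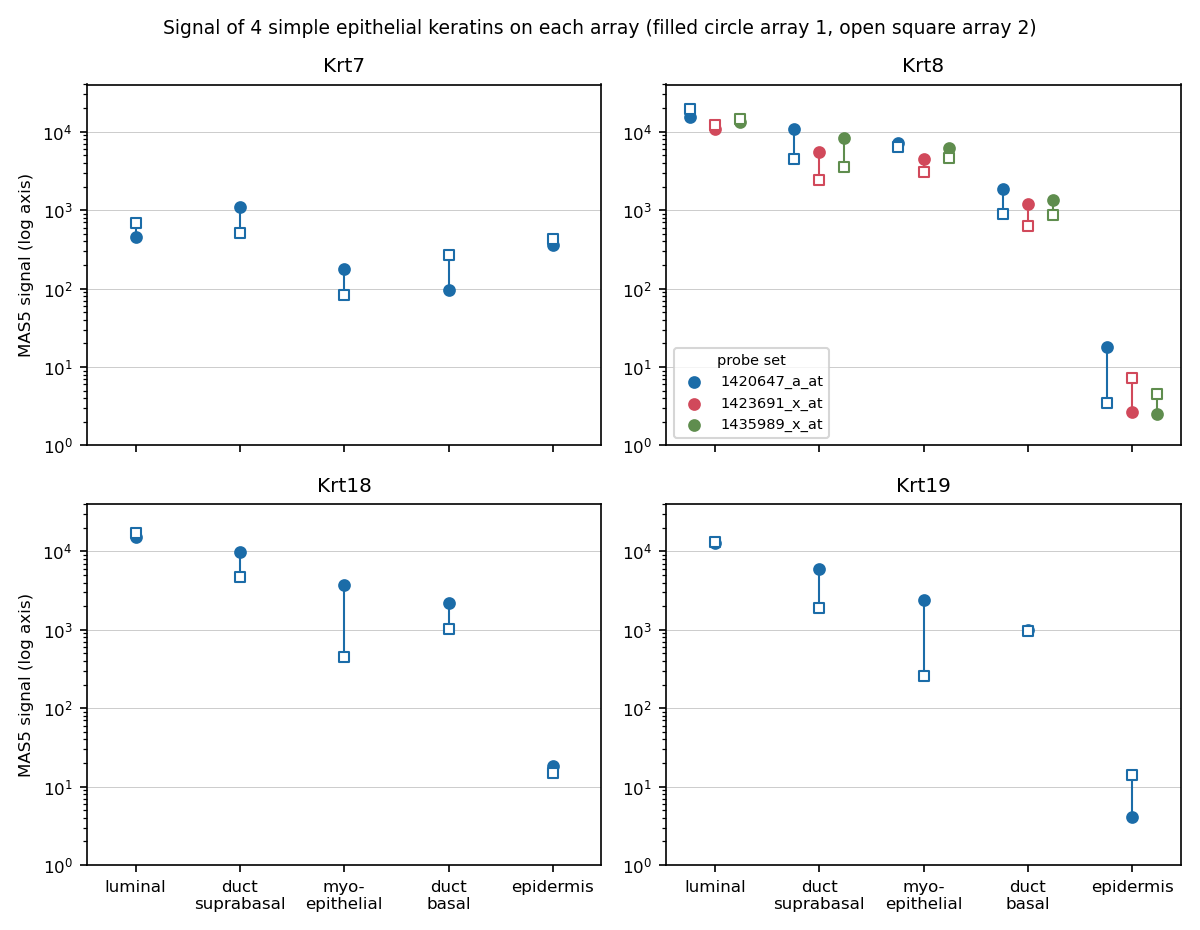
MAS5 signal (log axis) of the 4 keratin genes in each population, with array 1 as a filled circle and array 2 as an open square joined by a line, and the 3 probe sets of Krt8 in separate colours. Krt8, Krt18 and Krt19 stay between 255.2 and 19734.3 in all sweat populations and at or below 18.3 in epidermis, whereas Krt7 stays between 82.4 and 1088.5 in all 5.

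Differences were tested on the log2(signal + 12) scale with limma over all 10 arrays, and p-values were adjusted by the Benjamini-Hochberg method over the 9320 genes. All 4 members varied over the 5 populations in the F test, which 65.7% of all genes passed, with adjusted p = 6.04e-06 for Krt8, 0.000134 for Krt18, 0.000209 for Krt19 and 0.00872 for Krt7. These calls held with any single array left out. Of the 10 pairwise differences, 7 passed for Krt8, 6 each for Krt18 and Krt19, and 5 for Krt7. The single comparisons were passed by 15.2% to 51.6% of all genes.

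Against epidermis, the sweat populations carried far more Krt8, Krt18 and Krt19. Luminal cells exceeded epidermis by 9.67 ± 0.47 (log2 difference ± SE) for Krt8, 9.14 ± 0.81 for Krt18 and 9.32 ± 0.87 for Krt19, with adjusted p = 1.66e-06, 3.22e-05 and 4.19e-05 in limma. In this comparison 45.2% of all genes passed. Duct basal cells exceeded it by 5.92 for Krt8 (adjusted p = 6.04e-05 in limma), 5.73 for Krt18 (0.000860) and 5.60 for Krt19 (0.00141), where 34.0% of all genes passed. The same 3 genes passed in duct suprabasal cells, by 7.37 to 8.34 (background 46.0% of all genes), and in myoepithelial cells, by 5.30 to 8.29 (background 51.6%). Since the epidermal signals lie near the pseudocount of 12, these log2 differences understate the ratio of signals. All 12 of these calls held without any single array. Krt7 did not share this pattern. It differed from epidermis by 0.49 in luminal cells (adjusted p = 0.485 in limma, 95% interval -0.70 to 1.67), by 0.92 in duct suprabasal cells (0.185) and by -1.23 in duct basal cells (0.103). In myoepithelial cells it was 1.59 ± 0.53 lower than in epidermis (log2 difference -1.59, adjusted p = 0.0306), a call that was lost without myoepithelial array 2 (-1.08, 0.188), epidermis array 1 (-1.71, 0.0875) or epidermis array 2 (-1.47, 0.133). Without duct basal array 2, Krt7 was called lower in duct basal cells than in epidermis (-1.91, 0.0365).

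Merkel cells, touch receptors of the epidermis that carry Krt8, Krt18 and Krt20, could add these keratins to an epidermal sort. Of 10 Merkel markers 9 were measured and 1 passed the filter. On the epidermal arrays Krt20 was 31 and 27.5, Atoh1 15.7 and 7.1, Isl1 8.7 and 7.7, Sox2 2.1 and 1.8, and Chga 5.8 and 10.8, and none of these 5 genes exceeded 31 on any of the 10 arrays. The summed signal of the list was 158.6 and 186.3 in epidermis and between 273.5 and 7846.9 on the sweat arrays, where it was mostly Cck, a peptide hormone gene that reached 5605.6 and 7769.2 in myoepithelial cells.

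Between the layers of the secretory coil, the 4 keratins had lower means in the myoepithelial layer, to unequal degrees. The log2 difference was -4.02 ± 0.87 for Krt19 (16.2-fold, adjusted p = 0.00774 in limma), -3.62 ± 0.81 for Krt18 (12.3-fold, 0.00901), -2.07 ± 0.53 for Krt7 (4.21-fold, 0.0161) and -1.37 ± 0.47 for Krt8 (2.59-fold, 0.0541). Thus 3 of the 4 passed, where 31.1% of all genes did, and the brightest Krt8 probe set just missed. With every probe set tested on its own (14823 in all), the other Krt8 probe sets passed with -1.61 (adjusted p = 0.0183 in limma) and -1.35 (0.0249). Krt8 also passed without duct basal array 1 (0.0482) or 2 (0.0485) and without duct suprabasal array 1 (0.0170) or 2 (0.0170), each at -1.37. The Krt7 call was lost without myoepithelial array 2 (-1.56, 0.121) or luminal array 2 (-1.78, 0.106), and the Krt18 call without luminal array 2 (-3.53, 0.0544). Without myoepithelial array 1 the difference grew to -5.14 for Krt18 and -5.61 for Krt19, and without array 2 it shrank to -2.10 and -2.42.

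Between the layers of the duct, all 4 keratins had lower means in the basal than in the suprabasal layer. The log2 difference was -2.42 ± 0.47 for Krt8 (5.33-fold, adjusted p = 0.0113 in limma), -2.14 ± 0.53 for Krt7 (4.42-fold, 0.0260), -2.18 ± 0.81 for Krt18 (4.52-fold, 0.0979) and -1.77 ± 0.87 for Krt19 (3.42-fold, 0.193). Krt8 and Krt7 passed, where 16.4% of all genes did. The Krt8 call was lost without duct basal array 2 (-1.91, 0.0893). That of Krt7 was lost without duct basal array 1 (-1.46, 0.125), duct suprabasal array 1 (-1.62, 0.0980) or either epidermal array (-2.14 with each). Leaving out either myoepithelial array, which narrows the pooled spread, brought Krt18 (-2.18, 0.0131 and 0.0132) and Krt19 (-1.77, 0.0408 and 0.0409) past the threshold. The contrast of gland against duct in this layer difference did not pass for Krt7 (0.07), Krt8 (1.04), Krt18 (-1.44) or Krt19 (-2.24), where 16.0% of all genes passed. Without myoepithelial array 1 it passed for Krt18 (-2.96, adjusted p = 0.0252 in limma) and Krt19 (-3.84, 0.0168), and without array 2 it was 0.08 and -0.65.

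Of the 4 members, only Krt8 passed between the outer layers. It was 2.37 ± 0.47 higher in myoepithelial than in duct basal cells (5.18-fold, adjusted p = 0.00683 in limma), where 24.3% of all genes passed, and the call was lost without duct basal array 2 (1.87, 0.0624). Krt18 differed by -0.21 (adjusted p = 0.887, 95% interval -2.03 to 1.61), Krt19 by -0.30 (0.846, -2.25 to 1.66) and Krt7 by -0.36 (0.674, -1.55 to 0.83). For Krt18 and Krt19 the direction rested on a single array, since the difference was -1.73 and -1.89 without myoepithelial array 1 and 1.31 and 1.30 without array 2. Krt18 turned to 0.33 without duct basal array 1. Krt7 turned to 0.32 without duct basal array 2 and to 0.15 without myoepithelial array 2.

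With population as the only term of the fit and the brightest probe set of each gene, no member passed between the inner layers. Luminal minus duct suprabasal was 1.33 for Krt8 (adjusted p = 0.0904 in limma), 1.23 for Krt18 (0.336), 1.95 for Krt19 (0.163) and -0.43 for Krt7 (0.622), so that 0 of 4 members passed, where 15.2% of all genes did. Unadjusted p was 0.0199 for Krt8, 0.161 for Krt18, 0.0509 for Krt19 and 0.435 for Krt7, and thus below 0.05 for 1 of 4. Each interval was wide, reaching from 0.26 to 2.40 for Krt8 and from -0.01 to 3.90 for Krt19. With every probe set tested on its own, the other Krt8 probe sets passed, with 1.63 (adjusted p = 0.0355 in limma) and 1.33 (0.0493). Krt8 passed without duct suprabasal array 1 (1.97, 0.0133), Krt19 passed without myoepithelial array 1 (1.95, 0.0322) or array 2 (1.95, 0.0320), and Krt7 turned to 0.10 without duct suprabasal array 1.

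The remaining comparisons crossed layer and compartment. All 4 members were higher in luminal than in duct basal cells, by 3.75 for Krt8 (adjusted p = 0.000455 in limma), 3.72 for Krt19 (0.00945), 3.41 for Krt18 (0.0103) and 1.71 for Krt7 (0.0314), where 35.4% of all genes passed. The Krt8 call held with any array left out. Krt19 missed without luminal array 1 (3.73, 0.0511) or duct basal array 2 (3.70, 0.0504). Krt18 missed without luminal array 1 (3.49, 0.0501), luminal array 2 (3.32, 0.0550) or duct basal array 2 (2.86, 0.0756). Krt7 missed without duct basal array 1 (1.03, 0.208), luminal array 1 (2.01, 0.0671) or 2 (1.42, 0.167), or epidermal array 1 (1.71, 0.0526) or 2 (1.71, 0.0527). Between myoepithelial and duct suprabasal cells only Krt7 passed (-2.50 ± 0.53, adjusted p = 0.0116 in limma), where 17.4% of all genes did, and it missed without myoepithelial array 2 (-1.99, 0.0977). Krt8 differed there by -0.04 (95% interval -1.11 to 1.03), at 0.60 without duct suprabasal array 1 and 0.05 without myoepithelial array 2. Krt18 (-2.39, 0.0750) and Krt19 (-2.07, 0.139) passed without myoepithelial array 1 (-3.91, 0.00233 and -3.66, 0.00533).

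**Figure D2:**
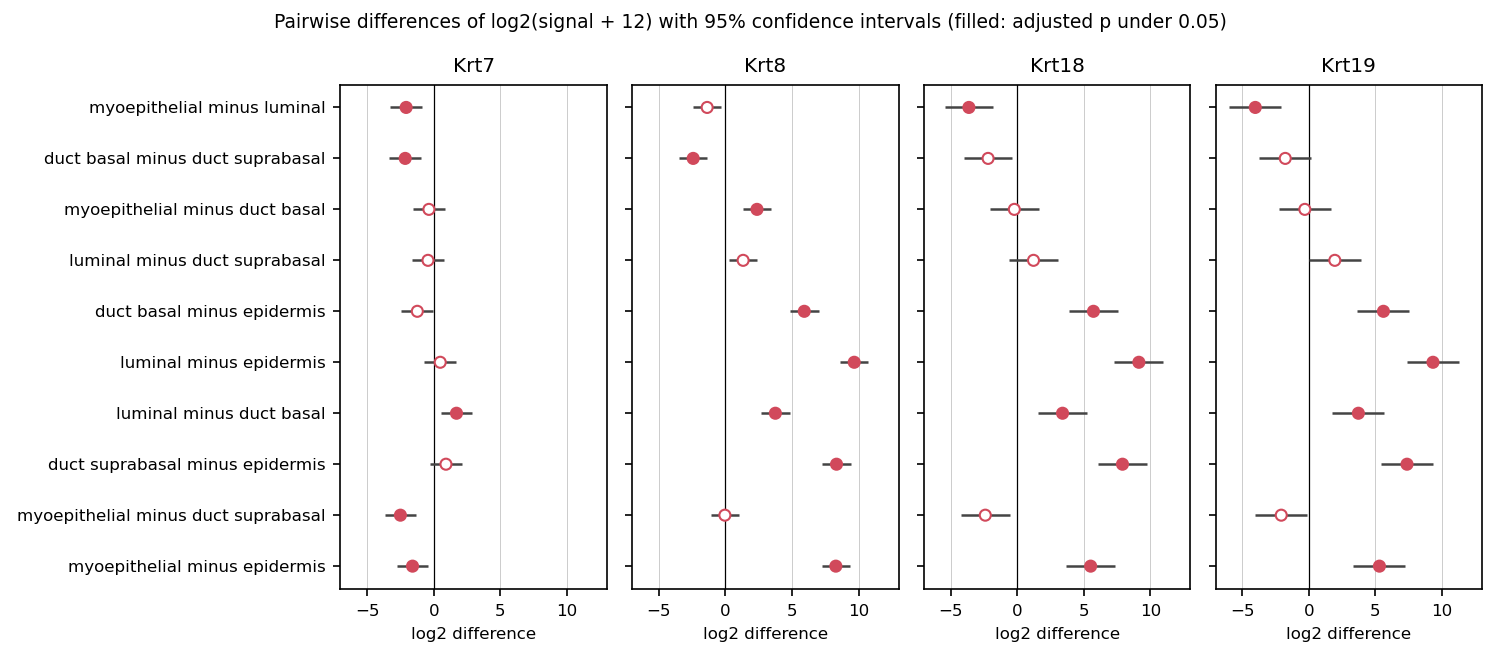
Log2 difference (points) with its 95% confidence interval (lines) for the 10 pairwise comparisons of the 4 keratins, filled where the adjusted p is under 0.05. Krt8, Krt18 and Krt19 lie between 5.30 and 9.67 in the comparisons with epidermis, where Krt7 lies between -1.59 and 0.92, and Krt8 is the member with a filled point for myoepithelial minus duct basal.

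The myoepithelial levels differed between arrays for some members and not for others. As a percentage of its own luminal mean, Krt8 stood at 40.9% and 35.8% on myoepithelial arrays 1 and 2. Krt18 stood at 23.3% and 2.76%, Krt19 at 18.6% and 1.96%, and Krt7 at 31.7% and 14.5%. Krt18 was thus 8.43-fold and Krt19 9.51-fold brighter on array 1 than on array 2, a gap on the log2 scale that 0.150% and 0.0858% of all genes exceeded, whereas the Krt8 gap was 1.14-fold and was exceeded by 62.9%. The other Krt8 probe sets gave 39.5% and 26.8%, and 45.7% and 33.5%. Luminal genes moved between these arrays as Krt18 and Krt19 did. The 11 secretory luminal genes had a median of 24.1% of the luminal mean on array 1 (11.5% to 88.6%) and 3.83% on array 2 (0.345% to 125%), with 9 of 11 brighter on array 1, the exceptions being the cotransporter Slc12a2 and the muscarinic receptor Chrm3. Their summed signal was 63082 and 44732, against 114568.6 and 171341.2 on the luminal arrays. Of 14 surface and junction genes of simple epithelium 12 were brighter on array 1, with medians of 21.4% and 6.32%, and 1 of 8 myoepithelial genes was. Of all 9320 genes tested, 4935 were brighter on array 1. The part of luminal RNA in the myoepithelial signals of Krt18 and Krt19 was not tested.

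The ratio of Krt8 to Krt18 within an array, set relative to its luminal mean, was 0.82 and 3.67 (log2) on the myoepithelial arrays. It was 0.02 and -0.22 in duct suprabasal and -0.38 and -0.30 in duct basal cells. Both myoepithelial arrays therefore lay above the other 6 sweat arrays, and by very different amounts. The ratio of Krt18 to Krt19 ran from -0.21 to 1.01 over the 8 sweat arrays. In an exact permutation F test over the 105 ways to split the 8 sweat arrays into pairs, a test chosen after these values had been seen, the Krt8 to Krt18 ratio gave p = 0.0381 and an adjusted p of 0.190 over the 6 pairs of members. No pair passed after adjustment, and the smallest p this design can give is 0.00952. A single pair at that p would not have passed over the 6 pairs, so no conclusion is drawn from this outcome.

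The duct suprabasal arrays also differed from each other. All 4 keratins were brighter on array 1, by 2.10-fold (Krt7), 2.44-fold (Krt8), 2.07-fold (Krt18) and 3.14-fold (Krt19). As a percentage of the luminal mean, Krt8 was 61.5% and 25.2%, Krt18 61.1% and 29.6%, Krt19 45.8% and 14.6%, and Krt7 192% and 91.4%. All 11 secretory luminal genes were brighter on array 1, and all 8 fibroblast and all 8 endothelial genes were brighter on array 2. Of all 9320 genes tested, 4773 were brighter on array 1. The summed fibroblast signal was 17122.4 and 93007.8, and the summed endothelial signal 2912.3 and 12656.4, against at most 44344.9 and 620.8 on any array outside the duct suprabasal layer. The part of stromal RNA in the keratin levels of this layer was not tested.

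The differences were also computed with myoepithelial array 1 and duct suprabasal array 2 both left out. These arrays were chosen after the gaps above had been seen in the members themselves, which sets the direction in which the values move, so they are given as a description with no test. Duct basal minus duct suprabasal was then -2.70 for Krt18 and -2.60 for Krt19, and myoepithelial minus duct basal was -1.73 and -1.89. For Krt7, duct suprabasal cells minus epidermis was 1.44, against 0.92 with all arrays.

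**Figure D3:**
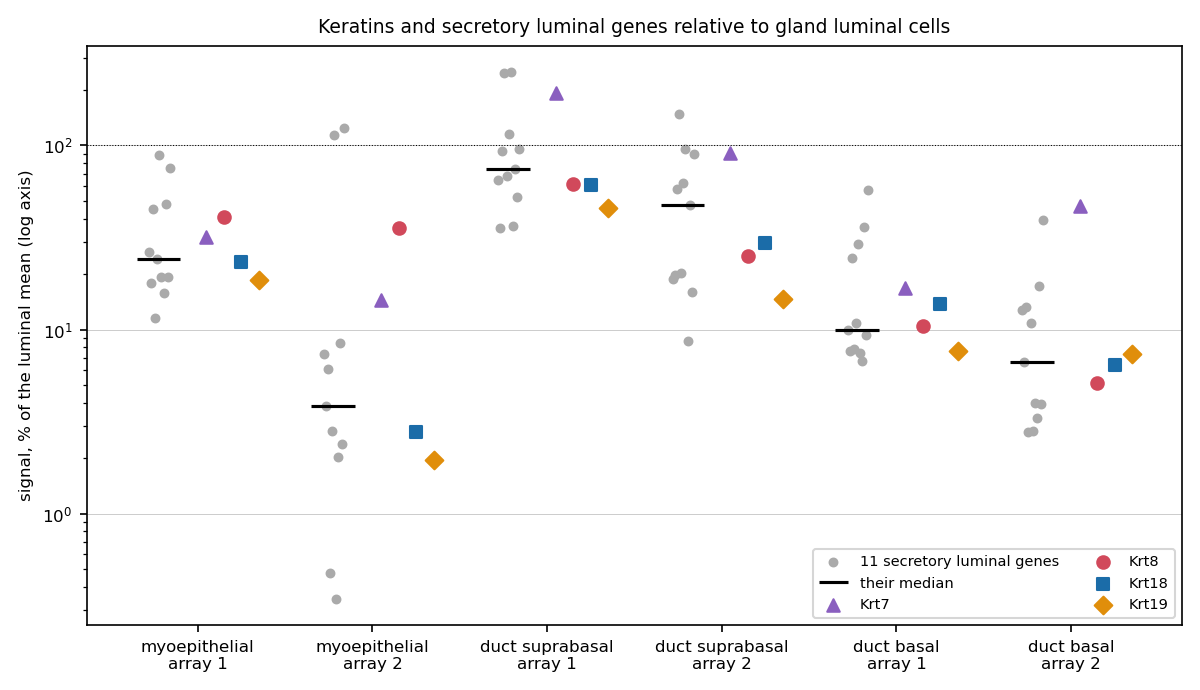
Signal of the 4 keratins on each myoepithelial, duct suprabasal and duct basal array as a percentage of the luminal mean of the same gene (log axis), beside 11 secretory luminal genes (grey points) and their median (black line). On the myoepithelial arrays Krt8 stays at 40.9% and 35.8% while Krt18, Krt19 and the median of the luminal genes lie between 18.6% and 24.1% on array 1 and between 1.96% and 3.83% on array 2.

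The genes most like each keratin over the 10 arrays were taken from the 9319 other tested genes by Pearson correlation of log2(signal + 12). These correlations are a description, because the points share the 2 epidermal arrays at the bottom and replicate pairs of each sort. Likeness of the named genes to a member on single arrays follows from this choice and is no separate finding. For Krt8 the leading genes were Cryab (r = 0.996), a small heat shock protein, Ppp1r3c (0.993), a glycogen-targeting phosphatase subunit, G0s2 (0.992), an inhibitor of triglyceride breakdown, Armcx1 (0.989) and Akap2 (0.988), a kinase anchor. Cryab was 4992.5 and 4972.6 in myoepithelial and 8161.2 and 8551.6 in luminal cells, so that like Krt8 it was nearly level between the myoepithelial arrays. Krt18 ranked 195th and Krt19 317th on this list.

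For Krt18 the leading genes were the transporter-like Mfsd4a (r = 0.998), Atp2a3 (0.997), a calcium pump of the endoplasmic reticulum, Kcnn4 (0.996), a calcium-gated potassium channel, Cldn8 (0.995), a tight junction claudin, and Phlda1 (0.994). For Krt19 they were Atp6v1b1 (0.995), a proton pump subunit, Phlda1 (0.995), Plin2 (0.995), a lipid droplet coat protein, Kcnn4 (0.995) and Mfsd4a (0.994). Krt18 and Krt19 each ranked 10th on the list of the other (r = 0.992). On myoepithelial arrays 1 and 2 Mfsd4a was 2129.2 and 261.4, and Kcnn4 2534.2 and 311.2. Both shared the gap of Krt18 and Krt19, as their choice by correlation over these same arrays requires. When likeness was taken over the 5 population means instead, Mfsd4a and Atp2a3 stayed among the leading 5 for Krt18, Plin2 and Kcnn4 for Krt19, and none of the 5 for Krt8 or Krt7.

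Over all arrays, epidermis included, Krt7 stood apart from the other members, with r = 0.056 to Krt8, 0.263 to Krt18 and 0.293 to Krt19. The distance was largest in epidermis. Relative to its luminal mean, the log2 ratio of Krt7 to each other member was 8.44 to 9.77 on the epidermal arrays. On the sweat arrays this ratio ran from -1.12 to 3.22. Likeness over the sweat arrays alone was not tested. The leading genes of Krt7 were Slc25a30 (r = 0.916), a mitochondrial carrier, Marveld2 (0.911), the tricellular junction protein tricellulin, and Samd10 (0.910). Next came Grhl1 (0.901), a grainyhead transcription factor of surface epithelia, and Pim3 (0.891), a kinase. Grhl1 was 1532.3 and 598.3 in duct suprabasal, 742.3 and 720.8 in luminal and 1230.4 and 1181.2 in epidermal cells, with 145.5 and 269.6 in duct basal and 205.5 and 101.4 in myoepithelial cells. Like Krt7 it was low in both outer layers, which the choice by correlation favours. Its mean was highest in epidermis (1206, against 1065 in duct suprabasal and 731.5 in luminal cells), where that of Krt7 (393.9) lay below the luminal and duct suprabasal means.

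Of the list of other keratins of simple epithelia, the 1 gene that passed the filter was Krt23, a type I keratin. It was 5911.4 and 4845.7 in luminal, 2825.2 and 2956.1 in myoepithelial, 2637.6 and 776.4 in duct suprabasal, 593.9 and 357 in duct basal cells, and 156.4 and 60.4 in epidermis. The myoepithelial arrays lay close together and above both duct suprabasal arrays, which for Krt8 lay on both sides of them. Krt23 was 2.62 ± 0.55 higher in myoepithelial than in duct basal cells (adjusted p = 0.00883 in limma) and 1.89 ± 0.55 higher in luminal than in duct suprabasal cells (0.0485). Neither its difference between myoepithelial and luminal cells (-0.89, 0.257) nor that between myoepithelial and duct suprabasal cells (1.01, 0.254) passed.

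In luminal cells most keratins of stratified epithelium were low, and in the other sweat populations they moved both ways against epidermis. Of 7 basal and stress keratins, 6 were lower and 0 higher in luminal cells than in epidermis, where 19.2% of all genes were lower and 26.1% higher. The median log2 difference was -5.19 against 0.16 for all genes, and Krt16 (-8.06), Krt6b (-6.53), Krt6a (-5.31) and Krt5 (-5.19) led. The count was 6 lower and 0 higher against duct suprabasal cells, where the median was -3.67 and 10.2% of all genes were lower. In myoepithelial against luminal cells 4 of 7 were higher and 0 lower, led by Krt17 (5.75) and Krt5 (5.55), where 16.5% of all genes were higher and 14.5% lower. Krt5, the type II keratin of basal layers, was 10007.2 and 12727.1 in myoepithelial cells and 155.8 and 333.9 in luminal cells, so that the myoepithelial arrays were bright for Krt5 and for Krt8 alike. In duct basal cells against epidermis 2 of the 7 basal and stress keratins were higher, Krt17 (1.63) and Krt5 (1.51), and 2 lower, where 34.0% of all genes passed, 23.0% of all being higher. In myoepithelial cells against epidermis 2 were higher, Krt15 (7.98-fold) and Krt17 (2.15-fold), and 4 lower, where 31.6% of all genes were higher and 19.9% lower. In duct suprabasal cells 0 were higher and 3 lower, where 29.4% and 16.7% of all genes were. Of 7 tested suprabasal keratins, 4 were lower and 0 higher in luminal cells than in epidermis, led by Krt2 (-10.33) and Krt1 (-8.26), where the same 19.2% and 26.1% of all genes were lower and higher. In each duct layer 4 were lower than in epidermis and 2 were higher, Krt79 (2.34 in duct basal and 3.80 in duct suprabasal cells) and Krt4 (1.71 and 2.07). In duct basal cells 34.0% of all genes passed, 23.0% of all being higher. In duct suprabasal cells 29.4% of all genes were higher and 16.7% lower. The 2 of 7 that were higher are thus near the share of all genes. In myoepithelial cells 4 were lower and 0 higher, where 19.9% of all genes were lower and 31.6% higher.

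**Figure D4:**
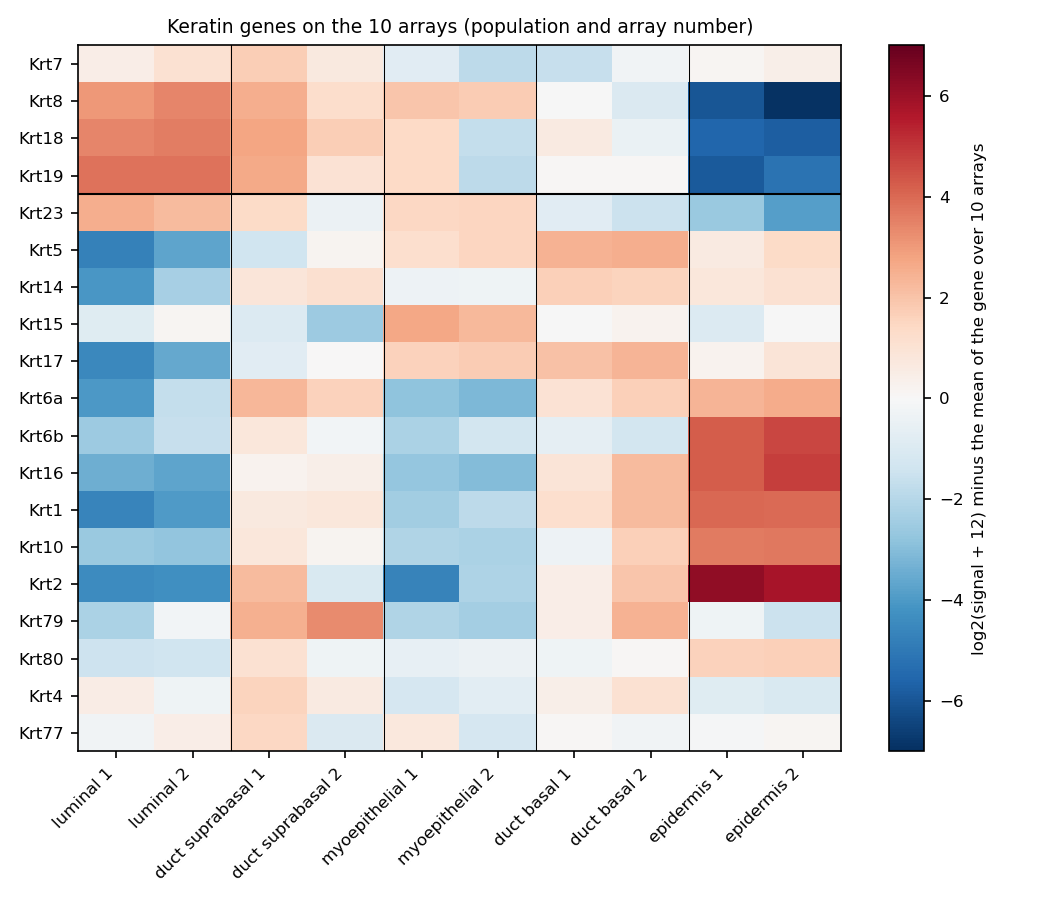
Log2(signal + 12) of 19 keratin genes on each of the 10 arrays, shown as the difference from the mean of the gene over the arrays (red above, blue below), with the 4 simple epithelial keratins above the black line. Krt8, Krt18 and Krt19 are blue in epidermis and red in luminal cells, where Krt5, Krt14 and Krt17 are blue.

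Surface and junction genes, transcription factors, keratin linkers and other intermediate filaments were counted in the same comparisons. Of 14 tested surface and junction genes of simple epithelium, 13 were lower and 0 higher on the myoepithelial side of the coil, with a median of -2.70 against 0.08 for all genes, of which 14.5% were lower. Cldn7 (-4.29) and Cldn3 (-3.97), tight junction claudins, Epcam (-3.28), an adhesion protein, and Rab25 (-3.23), a trafficking GTPase, changed most. Between luminal and duct suprabasal cells 0 of these 14 passed in limma, where 15.2% of all genes did, and 6 had an unadjusted p under 0.05. Against epidermis 7 were higher and 1 lower in luminal cells, where 26.1% of all genes were higher and 19.2% lower.

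Of 10 tested transcription factors of glandular epithelium, 6 were lower and 2 higher in the myoepithelial layer, with Foxa1 (-4.05), Ehf (-3.83), Elf5 (-3.79) and Klf5 (-2.86) leading. Over all genes 14.5% were lower and 16.5% higher. Of the 10, 7 were brighter on myoepithelial array 1 than on array 2, Foxa1, Ehf and Elf5 among them, with Ehf at 1525.3 and 177.4. Of all 9320 genes tested, 4935 were brighter on that array. Of 13 keratin linkers and partners, 4 were higher and 2 lower in myoepithelial than in luminal cells, and the 2 lower are about the share of all genes (14.5%, with 16.5% higher). Among those that passed were Dst (6.33), which ties keratin to the hemidesmosome, and Pkp2 (-4.63), a desmosomal plakophilin. Pkp2 was 1689.3 and 1520.7 in luminal cells and 288.4 and 2.2 on the myoepithelial arrays, a gap in the same direction as that of Krt18. Of the 13 linkers 9 were brighter on myoepithelial array 1, but their median log2 gap was only 0.11, against 0.03 for all genes. In luminal cells against epidermis 10 of 13 linkers were lower and 1, Pkp2, higher (6.69), where 19.2% of all genes were lower and 26.1% higher. Of 5 tested other intermediate filament genes 1 was higher and 0 lower in myoepithelial than in luminal cells, a share near that of all genes (16.5% higher). It was Vim, the mesenchymal filament vimentin (3.97, adjusted p = 0.00107 in limma).

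The nearest genes of the loci were looked at with no choice by value. On the other side of Krt18 from Krt8 lies Eif4b, a translation factor, which ranged from 2224.8 to 3987.0 over the 10 arrays, against 14.9 to 17022.5 for Krt18. Krt15, a basal type I keratin 4860 bases from Krt19, was 2848.2 and 2118.3 in myoepithelial and 228.8 and 458.2 in luminal cells, opposite to Krt19. Krt80, the neighbour of Krt7 on 1 side, was 487.9 and 512.2 in epidermis and 48.6 and 51.7 in luminal cells, where Krt7 was 449.6 and 683.6. Krt87, Krt78 and Krt9, the other neighbours, had no probe set with their single symbol in the annotation used here.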

How the data were processed

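Total RNA of sorted cells was hybridised to Affymetrix 3' arrays, 1 array per sample, and the authors deposited linear MAS5 signal intensities (per the submitters' processing notes) for 22690 probe sets, with software version and scaling not given in the sources used here. Probe sets were named from the platform annotation: 20380 had 1 symbol, 691 several and 1606 none listed, and only single symbols were used. For each gene the probe set with the highest mean was kept, and genes whose signal exceeded the 40th percentile on 2 or more arrays were tested. Signals became log2(signal + 12), where 12 is the 20th percentile of all values. limma 3.58.1 (R 4.3.3) fitted 1 mean per population over all arrays with a trended prior variance (5 residual degrees of freedom), with a threshold of 0.05 on Benjamini-Hochberg adjusted p. The 10 pairwise differences, the F test and the difference of layer differences were tested. The fit was tested on simulated data.

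The members and gene lists (18, of which 7 of pathways and 11 of cell type markers) were chosen with earlier results of these data known. Named genes were the members, the 5 genes most correlated with each, up to 4 genes per list with the largest change past the threshold and at least 2-fold, and genomic neighbours. Genes used to show array gaps or the cell type labels were taken from the lists. The number of arrays limits the precision. Promoters and positions came from RefSeq on GRCm38.p6. Alternatives were other pseudocounts, filters, quantile normalization, all probe sets or their mean, no variance trend, the arrays compared alone, adjustment over all comparisons together, a replicate block and each array left out.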

Additional observations from a re-analysis of the deposited data

How the results depend on the processing

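Apart from leaving out arrays, 512 alternative values were computed for the 48 results of the 4 keratins, and 498 kept their direction and side of the threshold. Of these, pseudocount 1, no filter, the filter at the 60th percentile and no variance trend changed none of the 48. Nor did testing every probe set, which was read here only at the probe set kept for each gene. The other Krt8 probe sets, tested on their own, passed for myoepithelial minus luminal and for luminal minus duct suprabasal cells. The Krt8 difference between myoepithelial and luminal cells passed with the pseudocount at the 40th percentile (-1.37, adjusted p = 0.0356 in limma), the mean of probe sets (-1.45, 0.0247) and the 4 arrays alone (-1.37, 0.0106). Krt8 luminal minus duct suprabasal passed with the mean of probe sets (1.43, 0.0442). With only the 4 arrays compared, the duct layer difference missed for Krt7 (-2.14, 0.120) and Krt8 (-2.42, 0.0819), Krt7 myoepithelial minus duct suprabasal missed (-2.50, 0.0724), and Krt7 duct basal minus epidermis passed (-1.23, 0.0446). Krt18 myoepithelial minus duct suprabasal passed with adjustment over all comparisons together (-2.39, 0.0494). Quantile normalization turned the Krt7 difference of layer differences to -0.06 and moved the median of all genes against epidermis from 0.24, 0.16, 0.26 and 0.28 to 0.01, -0.03, -0.10 and -0.02 in duct basal, luminal, duct suprabasal and myoepithelial cells. The cause was not tested for any of these.

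Same-numbered arrays deviated together by r = 0.12 to 0.36 over the 6 pairs of sweat populations and 0.03 to 0.09 with epidermis. The labels do not say what a replicate number shares, and 2 numbers per population are too few to settle a pairing, so a shared effect of the number among the sweat arrays was neither shown nor dismissed and the replicate block was kept as an alternative. With the replicate block, Krt8 myoepithelial minus luminal (-1.37, 0.0162), Krt8 luminal minus duct suprabasal (1.33, 0.0315), Krt18 duct basal minus duct suprabasal (-2.18, 0.0369) and Krt18 myoepithelial minus duct suprabasal (-2.39, 0.0258) passed, and no other call changed.

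With single arrays left out, the log2 difference ran for myoepithelial minus luminal cells from -2.59 to -1.56 (Krt7), -1.55 to -1.20 (Krt8) and -5.14 to -2.10 (Krt18). It ran for duct basal minus duct suprabasal cells from -2.83 to -1.46 (Krt7), -3.06 to -1.77 (Krt8), -2.72 to -1.63 (Krt18) and -2.60 to -0.95 (Krt19). It ran for myoepithelial minus duct basal cells from -1.04 to 0.32 (Krt7), 1.87 to 2.88 (Krt8), -1.73 to 1.31 (Krt18) and -1.89 to 1.30 (Krt19). It ran for luminal minus duct suprabasal cells from -0.96 to 0.10 (Krt7), 0.69 to 1.97 (Krt8) and 1.12 to 2.77 (Krt19). It ran for duct basal cells minus epidermis from -1.91 to -0.54 (Krt7). It ran for the difference of layer differences from -0.61 to 0.75 (Krt7), -2.96 to 0.08 (Krt18) and -3.84 to -0.65 (Krt19).

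Myoepithelial array 1 and duct suprabasal array 2 were also both left out, a choice made after their gaps had been seen in these genes. The values are therefore given with no test. Krt8 myoepithelial minus luminal was then -1.47, and Krt19 luminal minus duct suprabasal 1.12. Krt7 was -1.23 for duct basal minus epidermis and 1.44 for duct suprabasal minus epidermis. The difference of layer differences was -2.44 for Krt18 and -3.02 for Krt19. The duct layer difference was -2.70 and -2.60 and the outer layer difference -1.73 and -1.89 for Krt18 and Krt19, and the differences from duct suprabasal cells were -4.43 and -4.49 in myoepithelial cells.

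Krt8 myoepithelial minus duct suprabasal ran from -0.68 to 0.60 over single left-out arrays, 0.05 without myoepithelial array 2 included, and was -0.78 with those 2 arrays left out. With 2 arrays per population and no detection calls, signals near the bottom of the array in epidermis give no order among Krt8, Krt18 and Krt19 there.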
